A study of Homo sapiens with 30 samples.

Results

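Collagen chains are the genes whose symbol consists of COL, a type number, the letter A and a chain number. Of 60675 genes in the count table, 44 met this rule. They were read in 30 RNA sequencing libraries of SW1783, an established human astrocytoma cell line, collected 24 h after treatment with 70% ethanol extracts of herbal formulas used in Korea. Bojungikgi-tang and Sayeok-tang were each given at 500, 100 and 20 µg/mL with 3 libraries per dose. Banhasasim-tang had 2 libraries at each of these doses and Yijung-tang had 1. The vehicle group had 3 libraries, with 0.1% DMSO in the sample labels and 2% in the design text. All groups, vehicle included, came from this single cell line, and the labels name no separate cultures. The p-values therefore measure only the spread between these libraries, which may be technical. The description labels fall into one set for vehicle, another for Bojungikgi-tang and Sayeok-tang, and a further one for Banhasasim-tang and Yijung-tang. Against vehicle, set and treatment cannot be told apart, and the same holds for Banhasasim-tang set against Bojungikgi-tang or Sayeok-tang. Within a formula all doses share a set, so 500 against 20 µg/mL was taken as the leading comparison.

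A collagen molecule is a triple helix of chains that are encoded by separate genes, and each class builds a different structure. Fibrillar collagens, led by types I, III and V, form the banded fibrils of connective tissue. Type IV collagens form the sheet of basement membranes, type VI collagens form beaded filaments, and FACIT collagens bind to the surface of fibrils. Chains are hydroxylated and folded in the endoplasmic reticulum, leave it in large carriers, lose their propeptides outside the cell and are then cross-linked. In the brain, collagens are mainly found in the basement membranes and walls of vessels and in the meninges.

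Several type IV chains lie head to head in the genome, so that some of their start regions overlap and are read in opposite directions. RefSeq windows of 300 bases around the start (GRCh38.p14) were held for 32 of the 44 chains. The 2 windows of COL4A1 and COL4A2 share 226 bases, with starts 127 bases apart, and are shown because both chains of one molecule start there. COL5A1 stands for the fibrillar chains that were lower at the high dose, and COL15A1 is the chain that was higher at it in every replicated formula. Capitals mark CCAAT, the CCAAT box, and GGGCGG, a GC box, on either strand, and no match overlaps another in these windows.
COL4A1 (chr13:110307108-110307407, minus strand): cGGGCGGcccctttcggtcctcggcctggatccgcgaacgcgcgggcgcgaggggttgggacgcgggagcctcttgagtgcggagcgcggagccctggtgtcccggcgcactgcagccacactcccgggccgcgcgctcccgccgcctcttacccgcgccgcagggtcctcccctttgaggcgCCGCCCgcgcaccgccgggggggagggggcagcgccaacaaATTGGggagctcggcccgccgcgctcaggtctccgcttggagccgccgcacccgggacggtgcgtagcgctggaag
COL4A2 (chr13:110307034-110307333, plus strand): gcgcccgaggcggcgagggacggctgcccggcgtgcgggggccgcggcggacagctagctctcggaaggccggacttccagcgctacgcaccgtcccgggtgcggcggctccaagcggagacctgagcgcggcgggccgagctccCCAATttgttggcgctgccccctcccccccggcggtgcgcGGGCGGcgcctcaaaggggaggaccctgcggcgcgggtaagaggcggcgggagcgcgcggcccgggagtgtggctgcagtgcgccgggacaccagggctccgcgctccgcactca
COL5A1 (chr9:134641553-134641852, plus strand): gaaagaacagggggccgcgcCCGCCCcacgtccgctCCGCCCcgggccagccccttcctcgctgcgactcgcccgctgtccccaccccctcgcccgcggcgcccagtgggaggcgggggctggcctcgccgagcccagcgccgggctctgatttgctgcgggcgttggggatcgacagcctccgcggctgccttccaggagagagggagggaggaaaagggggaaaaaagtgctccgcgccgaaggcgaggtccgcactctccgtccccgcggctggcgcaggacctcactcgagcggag
COL15A1 (chr9:98943657-98943956, plus strand): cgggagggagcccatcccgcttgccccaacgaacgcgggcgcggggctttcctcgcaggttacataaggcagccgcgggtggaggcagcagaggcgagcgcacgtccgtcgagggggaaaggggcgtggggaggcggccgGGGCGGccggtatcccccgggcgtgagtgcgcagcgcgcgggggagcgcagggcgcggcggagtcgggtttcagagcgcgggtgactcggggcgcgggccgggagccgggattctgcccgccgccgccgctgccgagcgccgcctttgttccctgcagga

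A CCAAT box was found in a window of 12 of the 32 chains, and in 34.6% of the 34796 promoter windows of all genes. A GC box was found for 21 of the 32 chains and in 44.9% of all windows. TATAAA, the TATA box, was found for 7 chains and in 11.6% of all windows, and in none of the 4 windows printed. COL4A5 shares 121 bases in the same arrangement with 1 of the 2 windows of COL4A6 and 0 with the other, whose start lies 1416 bases away, and COL4A3 and COL4A4 share 82. A chain was counted when any of its windows held a match, and some chains have more than 1 window. The shares over all genes count single windows, so the chain counts run high beside them and the units differ. A match in these letters is a description of the window only.

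Gene counts summed to between 28.01 and 59.9 M per library. Bojungikgi-tang at 20 µg/mL replicate 2 stood apart from its group, with a chi-square per gene of 32.8 and 33.2 to the other replicates, against at most 18.1 for other pairs of one group. The share of counts on mitochondrial ribosomal RNA was 3.44 to 3.93% in Banhasasim-tang at 20 µg/mL, 9.69 to 9.71% at 100 µg/mL and 7.70 to 7.82% at 500 µg/mL. It was 1.41 to 1.64% in the other formulas and 0.942 to 1.00% in vehicle. Astrocyte markers were incomplete, with 4 of 10 at 1 CPM or more. Among those below it, the astrocyte filament gene GFAP was at 0.0353 to 0.211 CPM and S100B at 0.0284 to 0.317 CPM over the 30 libraries. The 10 markers still summed to 215 to 366 CPM per library. All 9 markers of fibroblasts and perivascular cells were at 1 CPM or more, with sums of 511 to 889 CPM.

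Levels are CPM, counts scaled to the library total, after TMM scaling, which sets libraries to a common level over most genes. Between genes, levels are compared as CPM per kilobase of exon, with exons joined over all transcripts of GENCODE v29. COL1A1, the main chain of type I collagen (ENSG00000108821, chromosome 17, 50183289 to 50201632, minus strand, GRCh38), had the highest mean level per length at 316 CPM per kilobase over the 30 libraries. It ranged from 148 to 383 CPM per kilobase and overlapped with COL6A1, a type VI chain that averaged 301 and ranged from 274 to 334. COL6A2 averaged 209, COL5A1 188 and COL1A2, the partner chain of COL1A1, 162 CPM per kilobase. These 5 chains stood apart from the next ones, COL5A2 at 45.7, the FACIT chain COL12A1 at 39.9 and COL4A2 at 32.5 CPM per kilobase. COL7A1 of anchoring fibrils, COL4A1, COL8A1 and COL4A5 followed at 20.9, 20.1, 17.3 and 13.9 CPM per kilobase, and the ranges of COL7A1 and COL4A1 overlapped. With the length of the longest transcript instead, COL1A2 ranked above COL5A1 and COL4A2 took rank 6.

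**Figure D1:**
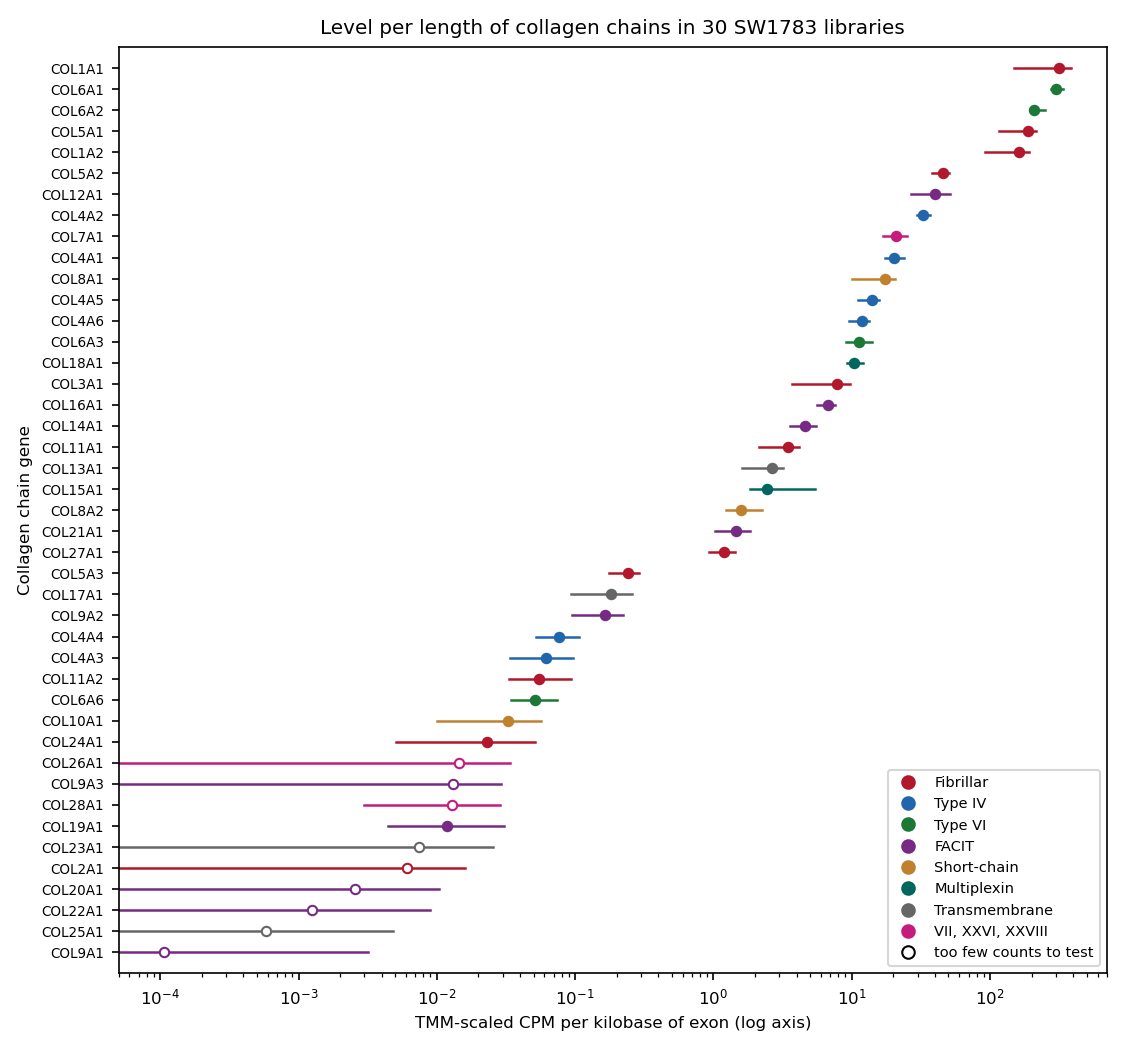
Level per length of 43 collagen chains, from high at the top to low, on a log axis of TMM-scaled CPM per kilobase of exon. Points are means over 30 libraries, lines run from the lowest to the highest library and reach the left edge where a library had no count, colours give the class, and open points mark chains with too few counts to test. COL1A1 (316) and COL6A1 (301) lead, and COL6A5, at 0 in every library, is not drawn.

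The remaining levels fell off over several orders of magnitude. Of the 44 chains, 26 had a mean of at least 1 CPM and 34 had enough counts to be tested. The 8 chains tested below 1 CPM are COL4A3, COL4A4, COL6A6, COL9A2, COL11A2, COL10A1, COL19A1 and COL24A1, of which the last 3 reached at most 11, 10 and 21 counts in a library. The 10 chains that were not tested reached at most 9 counts in any library. They are COL2A1, the main collagen of cartilage, with COL6A5, COL9A1, COL9A3, COL20A1, COL22A1, COL23A1, COL25A1, COL26A1 and COL28A1. COL6A5 had 0 counts in each library, which allows up to 3 counts per library from counting error alone. Collagen chains together took 0.872 to 0.879% of the counts in Banhasasim-tang at 500 µg/mL, against 1.32 to 1.34% at 20 µg/mL. In Sayeok-tang they took 1.08 to 1.16% at 500 µg/mL, against 1.32 to 1.37% at 20 µg/mL. In Bojungikgi-tang they took 1.23 to 1.26%, against 1.29 to 1.43%, and in vehicle, of another description set, 1.36 to 1.39%. These are shares of all counts, mitochondrial ribosomal RNA included. It took 7.70 to 7.82% in Banhasasim-tang at 500 µg/mL and 3.44 to 3.93% at 20 µg/mL.

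At 500 against 20 µg/mL, chains of fibrillar collagen fell in each replicated formula. Type IV chains fell in Sayeok-tang and Banhasasim-tang, and of the type VI chains COL6A2 alone passed the test, in Banhasasim-tang. COL15A1 rose in all 3 formulas. In Bojungikgi-tang 2 of the 34 tested chains were higher and 9 lower at an adjusted p below 0.05, where 15.5% of all 19632 tested genes were called (6.64% higher, 8.90% lower). With library size alone the split was 3 higher and 6 lower, and with an offset for GC content and length 2 higher and 17 lower. In Sayeok-tang 1 was higher and 15 lower, where 20.5% of all genes were called (9.89% higher, 10.6% lower). In Banhasasim-tang 3 were higher and 18 lower, where 43.7% of all genes were called (22.3% higher, 21.3% lower).

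Since highly expressed genes are called more readily, the 26 chains with a mean of at least 1 CPM were also set beside the 13966 genes at that level. All calls above were among these 26 chains. Lower calls made up 12% of such genes in Bojungikgi-tang, 14.1% in Sayeok-tang and 26.9% in Banhasasim-tang, and higher calls 8.74, 12.9 and 27.6%. The median log2 change over the 26 chains was -0.11 in Bojungikgi-tang, -0.22 in Sayeok-tang and -0.32 in Banhasasim-tang, whereas the median over all tested genes was within 0.01 of 0 in each. 18 chains were lower in at least 1 formula, 16 in at least 2 and 8 in all 3. The 8 are COL1A1, COL1A2, COL5A1, COL8A1, COL11A1, COL13A1, COL17A1 and COL21A1. The same overlap over all genes was not counted, so these overlap numbers are a description only. Without Bojungikgi-tang 20 µg/mL replicate 2, 1 chain was higher and 15 were lower in that formula.

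**Figure D2:**
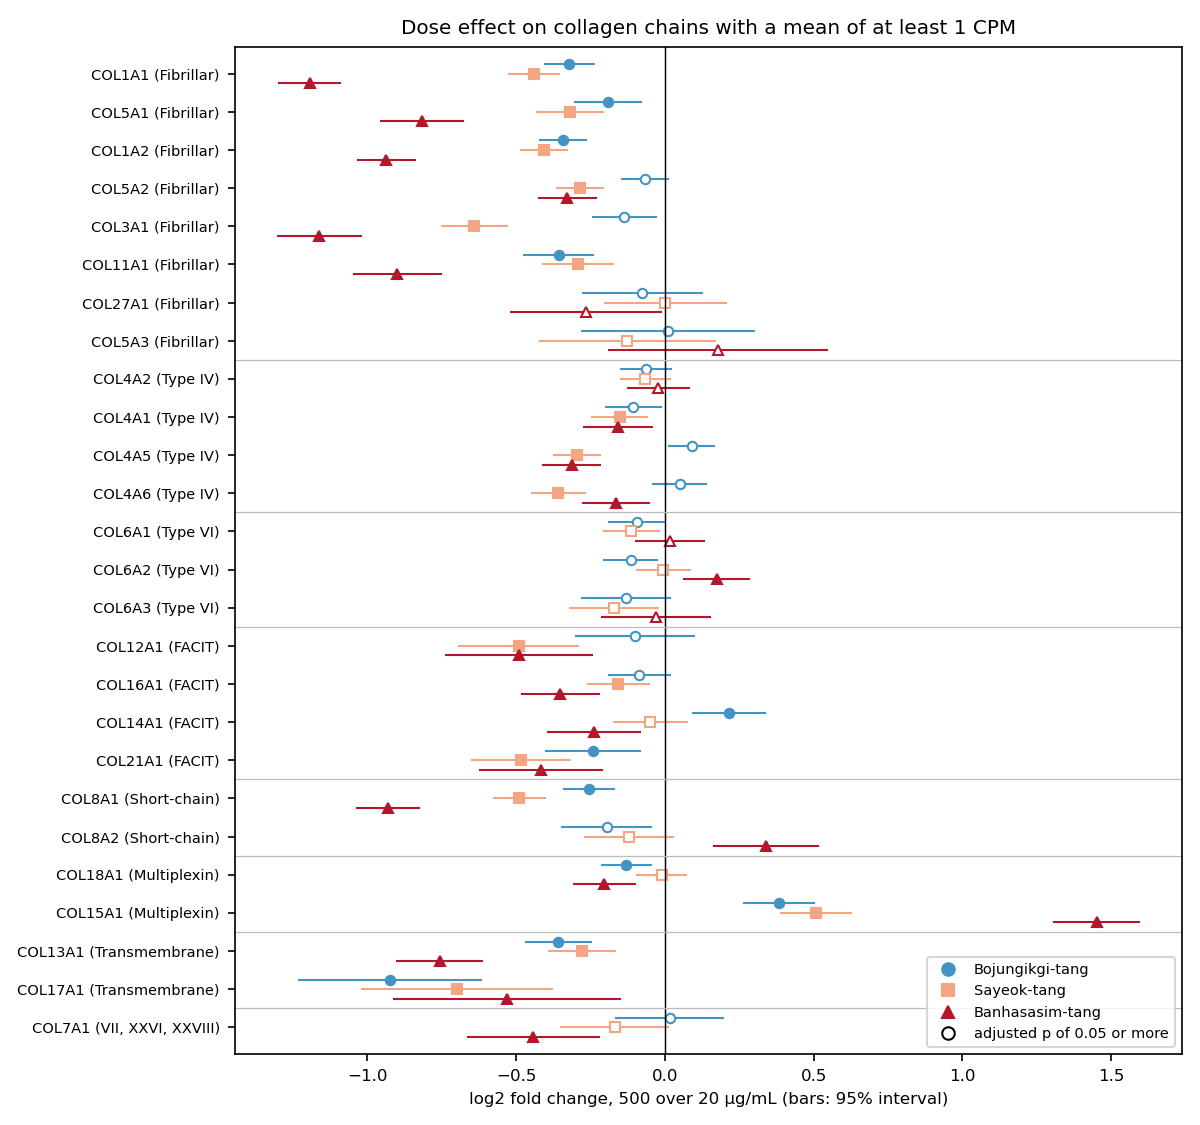
Log2 fold change of 500 over 20 µg/mL for the 26 chains with a mean of at least 1 CPM, grouped by class, in Bojungikgi-tang (circles, 3 libraries per dose), Sayeok-tang (squares, 3 per dose) and Banhasasim-tang (triangles, 2 per dose). Bars are 95% intervals and open symbols did not pass the test. The 6 most abundant fibrillar chains lie left of 0 with Banhasasim-tang farthest out (COL1A1 at -1.19), type VI chains lie near 0, and COL15A1 lies to the right.

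Among fibrillar chains, which hold the tensile fibrils of tissue, 4 of the 8 at 1 CPM or more fell in Bojungikgi-tang, 6 in Sayeok-tang and 6 in Banhasasim-tang, and 0 rose. Their median log2 change was -0.16, -0.31 and -0.86 in these formulas. COL1A1 had 1453 and 1518 CPM in Banhasasim-tang at 500 µg/mL, against 3398 and 3395 CPM at 20 µg/mL. The groups did not overlap, and the high-dose libraries were the lowest of all 30 for this gene. The log2 fold change was -1.19 ± 0.049 (SE; adjusted p = 2.55e-17). COL1A1 had 2597, 2408 and 2469 CPM in Sayeok-tang at 500 µg/mL, against 3317, 3449 and 3374 CPM at 20 µg/mL, a change of -0.44 ± 0.039 (adjusted p = 1.69e-09). In Bojungikgi-tang it had 2899, 2870 and 2804 CPM at 500 µg/mL, against 3760, 3401 and 3553 CPM at 20 µg/mL, a change of -0.32 ± 0.039 (adjusted p = 9.41e-07). Neither of these pairs of groups overlapped. In bulk RNA, fewer cells that express a chain and less RNA per cell cannot be told apart.

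COL1A2, the other chain of type I collagen, had 1027 and 1041 CPM in Banhasasim-tang at 500 µg/mL, against 1979 and 1978 CPM at 20 µg/mL. Its log2 change was -0.94 in Banhasasim-tang, -0.41 in Sayeok-tang and -0.34 in Bojungikgi-tang, all 3 past the test. COL3A1, the single chain of type III collagen of vessels and other stretchable tissue (ENSG00000168542, chromosome 2, 188974320 to 189012746, plus strand), had 25.2 and 25.1 CPM in Banhasasim-tang at 500 µg/mL, against 55.0 and 57.5 CPM at 20 µg/mL. In Sayeok-tang it had 37.6, 35.9 and 33.6 CPM at 500 µg/mL, against 51.5, 59.7 and 56.1 CPM at 20 µg/mL. COL3A1 thus fell without overlap in both, with changes of -1.16 (adjusted p = 3.38e-14) and -0.64 (adjusted p = 3.03e-10) on the log2 scale. In Bojungikgi-tang its log2 change of -0.14 missed the test (adjusted p = 0.0687; 95% interval -0.24 to -0.03).

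Type V collagen starts type I fibrils and limits their width. Its chain COL5A1 (ENSG00000130635) had 1315 and 1304 CPM in Banhasasim-tang at 500 µg/mL, against 2323 and 2287 CPM at 20 µg/mL. It fell, with log2 changes of -0.82 there, -0.32 in Sayeok-tang and -0.19 in Bojungikgi-tang. In Bojungikgi-tang the groups overlapped, with 1991, 1973 and 1943 CPM at 500 µg/mL against 2393, 1960 and 2387 CPM at 20 µg/mL, the low value being replicate 2. The partner chain COL5A2 fell, with a log2 change of -0.33 in Banhasasim-tang and -0.28 in Sayeok-tang and gave -0.07 in Bojungikgi-tang (adjusted p = 0.236). COL11A1, a chain of type XI collagen that plays a like part in cartilage, fell in all 3, with log2 changes of -0.90 in Banhasasim-tang, -0.29 in Sayeok-tang and -0.36 in Bojungikgi-tang. COL27A1 and COL5A3, at 16.5 and 1.63 CPM on average, passed the test in none. Their widest 95% interval, for COL5A3 in Banhasasim-tang, ran from -0.19 to 0.54.

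**Figure D3:**
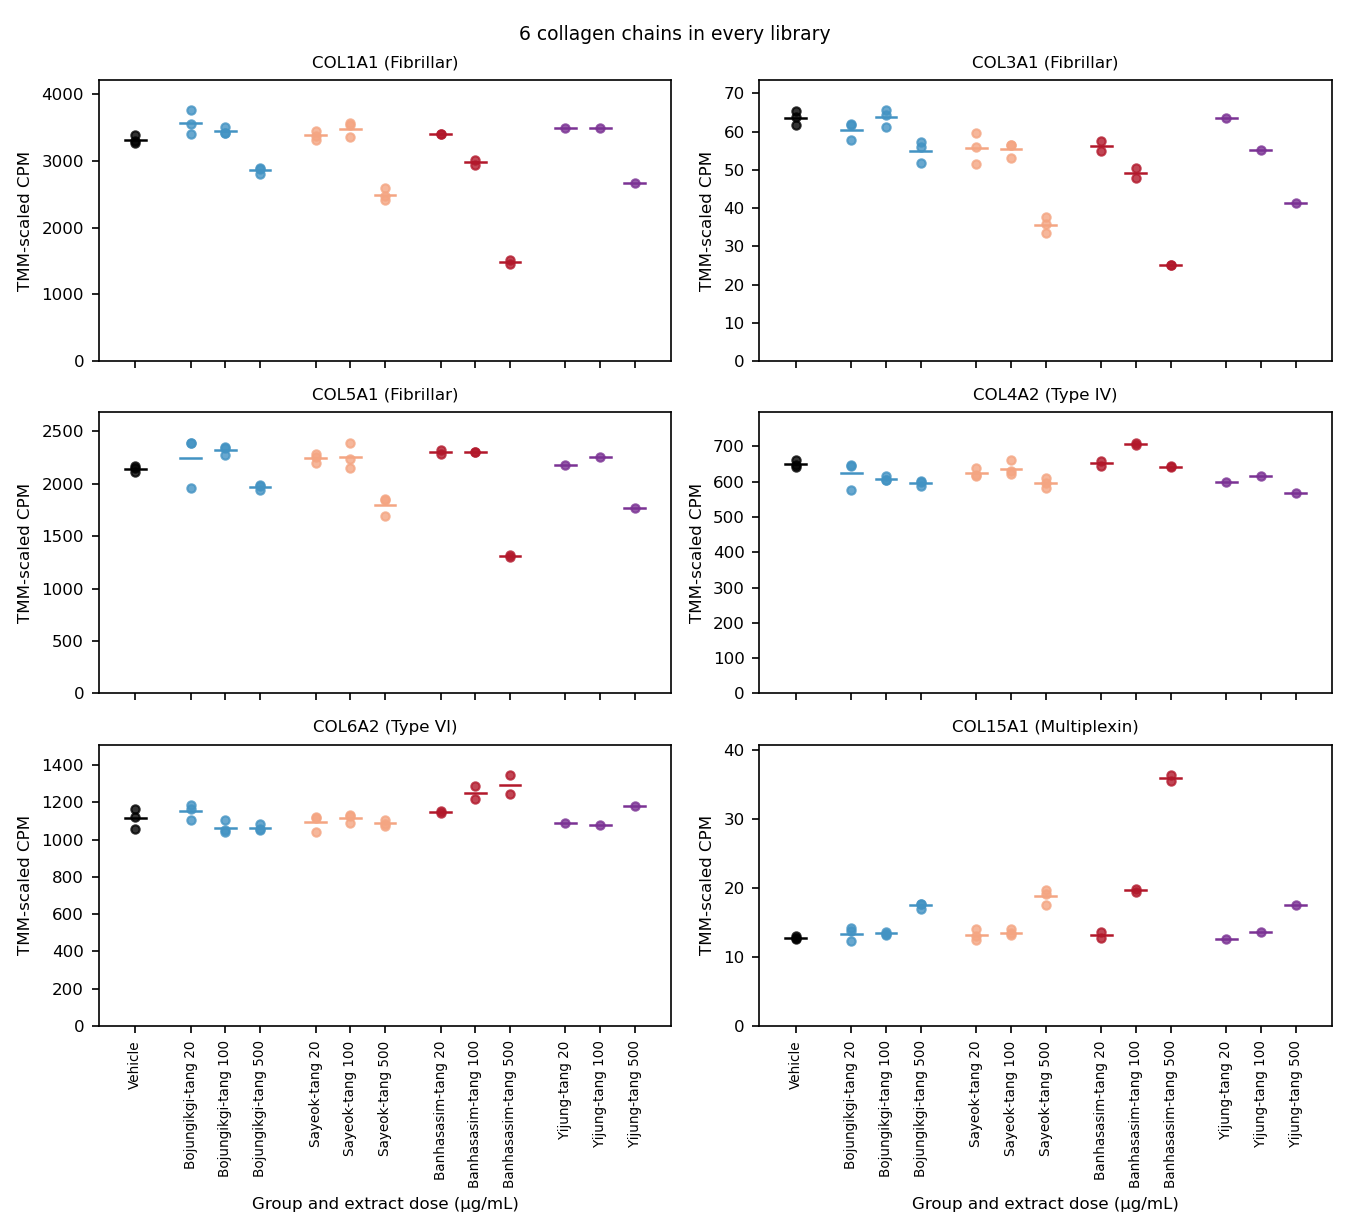
TMM-scaled CPM of 6 collagen chains in every library, by group, with extract doses from 20 to 500 µg/mL and vehicle at the left. Each point is a library and each bar is the group mean. COL1A1, COL3A1 and COL5A1 are lowest in Banhasasim-tang at 500 µg/mL (1453 and 1518 CPM for COL1A1), the change of COL3A1 in Bojungikgi-tang did not pass the test, COL4A2 and COL6A2 stay in narrow ranges, and COL15A1 reaches 35.4 and 36.3 CPM in Banhasasim-tang at 500 µg/mL.

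Type IV collagen is the network of basement membranes. At 1 CPM or more it was represented by COL4A1 and COL4A2, the chains of nearly all basement membranes, and by COL4A5 and COL4A6. Of these 4 chains, 0 changed in Bojungikgi-tang and 3 fell in each of Sayeok-tang and Banhasasim-tang, with median log2 changes of -0.01, -0.22 and -0.16. COL4A2 (ENSG00000134871) had 645 and 640.5 CPM in Banhasasim-tang at 500 µg/mL, against 660 and 645 CPM at 20 µg/mL. The groups were nearly level, and the log2 change of -0.02 had a 95% interval of -0.12 to 0.08. COL4A1 had 288 and 284 CPM in Banhasasim-tang at 500 µg/mL, against 319 and 320.4 CPM at 20 µg/mL. That fall of -0.16 (adjusted p = 0.0184) did not hold when any single library of the comparison was left out, with adjusted p-values of 0.0516 to 0.0897. COL4A5 fell, with a log2 change of -0.31 in Banhasasim-tang and -0.30 in Sayeok-tang, and COL4A6 with -0.16 and -0.36. In Bojungikgi-tang COL4A5 gave 0.09 (adjusted p = 0.0995) and COL4A6 gave 0.05 (adjusted p = 0.485). COL4A3 and COL4A4, chains of kidney and lung basement membranes, were below 1 CPM and passed the test in none of the 3.

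Type VI collagen forms filaments around cells. COL6A1, COL6A2 and COL6A3 gave 0 calls in Bojungikgi-tang and Sayeok-tang, with medians of -0.12 and -0.11, and COL6A2 alone rose in Banhasasim-tang. COL6A2 (ENSG00000142173) had 1245 and 1348 CPM in Banhasasim-tang at 500 µg/mL, against 1156 and 1143 CPM at 20 µg/mL. The groups did not overlap, and the log2 change was 0.17 (adjusted p = 0.00783). With an offset for GC content and length it was 0.10 (adjusted p = 0.0699), and with library size alone 0.10 (adjusted p = 0.0983). The call was also lost without replicate 3 at 500 µg/mL, at 0.12 (adjusted p = 0.15), and without replicate 3 at 20 µg/mL, at 0.17 (adjusted p = 0.0506). COL6A1 gave 0.02 in Banhasasim-tang, with a 95% interval of -0.10 to 0.13.

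Levels were also summed over the chains of a class. Fibrillar chains summed to 4141 and 4209 CPM in Banhasasim-tang at 500 µg/mL, against 8170 and 8129 CPM at 20 µg/mL. Type VI chains summed to 3103 and 3339 CPM at 500 µg/mL, against 3065 and 3052 CPM at 20 µg/mL. The fibrillar share of all collagen CPM was thus 44.2 ± 0.37% in Banhasasim-tang at 500 µg/mL and 59.7 ± 0.20% at 20 µg/mL (SD, n = 2 each), while that of type VI was 34.1 ± 1.1% and 22.4 ± 0.062%. In Sayeok-tang the fibrillar share was 56.0 ± 0.49% at 500 µg/mL and 60.1 ± 0.063% at 20 µg/mL (SD, n = 3 each). In Bojungikgi-tang it was 57.4 ± 0.21% at 500 µg/mL and 60.6 ± 0.55% at 20 µg/mL (SD, n = 3 each). Shares were set beside each other without a test.

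**Figure D4:**
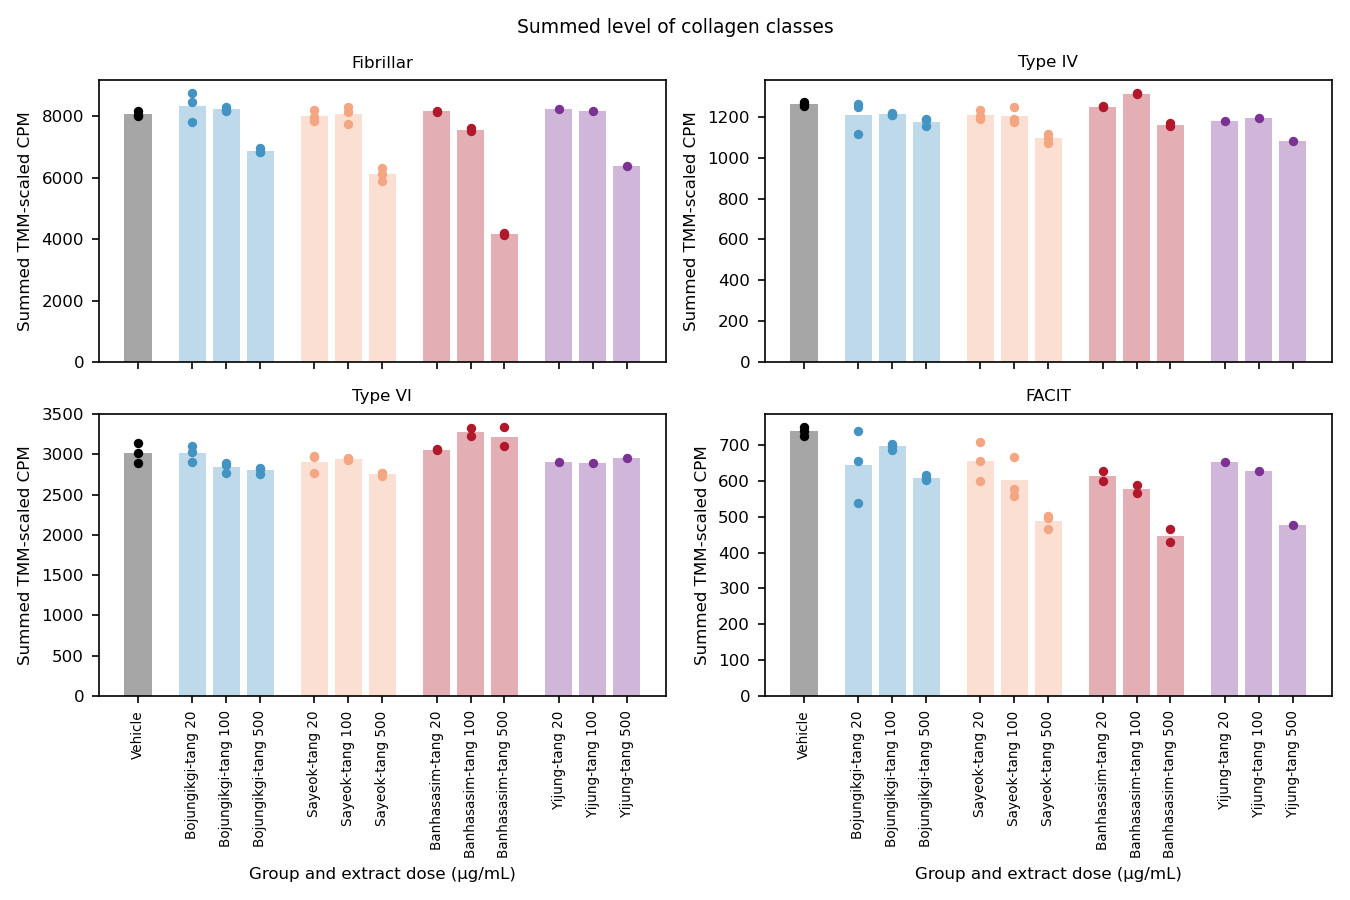
Summed TMM-scaled CPM of 4 collagen classes by group, with bars at the group mean and a point for each library, on axes that start at 0, with doses from 20 to 500 µg/mL and vehicle at the left. The fibrillar sum is lowest in Banhasasim-tang at 500 µg/mL (4141 and 4209 CPM), and the type IV and type VI sums vary less between groups.

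Chains of one molecule did not always move by the same factor. Within a library a ratio of 2 chains does not depend on the scaling between libraries, although its size depends on their lengths. It can still carry GC and length effects that differ between libraries, and no ratio was computed with an offset for them. GC content of the longest transcript is 61.14% for COL1A1 and 41.72% for COL1A2, and 60.25% for COL5A1 and 47.95% for COL5A2. The log2 ratio of COL1A1 over COL1A2 was 0.52 ± 0.031 in Banhasasim-tang at 500 µg/mL and 0.78 ± 0.00080 at 20 µg/mL (SD, n = 2 each). That of COL5A1 over COL5A2 was 2.20 ± 0.0082 at 500 µg/mL and 2.69 ± 0.0079 at 20 µg/mL. Both differences were larger than the spread of either group, which rests on 2 libraries each. In vehicle, of another description set, the 2 ratios lay between these values, at 0.66 ± 0.030 and 2.52 ± 0.024 (SD, n = 3). In Sayeok-tang COL1A1 over COL1A2 was 0.78 ± 0.025 at 500 µg/mL and 0.82 ± 0.042 at 20 µg/mL, and in Bojungikgi-tang 0.83 ± 0.045 at 500 µg/mL and 0.80 ± 0.033 at 20 µg/mL (SD, n = 3 each). COL5A1 over COL5A2 was 2.65 ± 0.056 and 2.68 ± 0.0050 at these doses in Sayeok-tang, and 2.55 ± 0.027 and 2.67 ± 0.086 in Bojungikgi-tang. COL4A1 over COL4A2 was -1.17 ± 0.0064 in Banhasasim-tang at 500 µg/mL and -1.03 ± 0.028 at 20 µg/mL. It was lower at 500 µg/mL in the other 2 formulas too, with -1.16 ± 0.015 and -1.08 ± 0.019 in Sayeok-tang. In Bojungikgi-tang it was -1.12 ± 0.016 and -1.08 ± 0.037. COL6A1 over COL6A2 was 0.39 ± 0.0082 in Banhasasim-tang at 500 µg/mL and 0.55 ± 0.0036 at 20 µg/mL, and in Sayeok-tang 0.44 ± 0.031 at 500 µg/mL and 0.54 ± 0.016 at 20 µg/mL. Neighbours in the genome differed too: COL3A1 and COL5A2 lie tail to tail on chromosome 2, 19149 bases apart, and gave -1.16 and -0.33 in Banhasasim-tang.

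Of the 11 chains of other classes at 1 CPM or more, 2 rose and 5 fell in Bojungikgi-tang, 1 rose and 6 fell in Sayeok-tang, and 2 rose and 9 fell in Banhasasim-tang. COL15A1 encodes a multiplexin, a collagen with an interrupted helix at the outer face of basement membranes (ENSG00000204291, chromosome 9, 98943179 to 99070792, plus strand). It had 35.4 and 36.3 CPM in Banhasasim-tang at 500 µg/mL, against 12.7 and 13.6 CPM at 20 µg/mL. In Sayeok-tang it had 17.5, 19.1 and 19.6 CPM at 500 µg/mL, against 14.0, 13.1 and 12.4 CPM at 20 µg/mL. In Bojungikgi-tang it had 16.9, 17.7 and 17.7 CPM at 500 µg/mL, against 13.7, 12.2 and 14.1 CPM at 20 µg/mL. The high-dose libraries lay above the low-dose ones in each formula, with log2 changes of 1.45 ± 0.067 in Banhasasim-tang (adjusted p = 4.34e-16), 0.51 ± 0.056 in Sayeok-tang (adjusted p = 9.71e-08) and 0.38 ± 0.056 in Bojungikgi-tang (adjusted p = 1.42e-05). The other multiplexin, COL18A1, the source of the fragment endostatin, fell, with a log2 change of -0.20 in Banhasasim-tang and -0.13 in Bojungikgi-tang, a call kept in 8 of 15 alternative settings in Bojungikgi-tang, and gave -0.01 in Sayeok-tang (adjusted p = 0.895).

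COL8A1, a short-chain collagen of vessel walls and of the corneal Descemet's membrane, had 94.1 and 95.7 CPM in Banhasasim-tang at 500 µg/mL, against 181 and 181 CPM at 20 µg/mL. It fell, with a log2 change of -0.93 in Banhasasim-tang, -0.49 in Sayeok-tang and -0.25 in Bojungikgi-tang. Its partner COL8A2 went the other way in Banhasasim-tang, with 10.1 and 10.4 CPM at 500 µg/mL against 7.70 and 8.56 CPM at 20 µg/mL, a rise of 0.34 (adjusted p = 0.00133). It gave -0.12 in Sayeok-tang (adjusted p = 0.251) and -0.20 in Bojungikgi-tang (adjusted p = 0.0582). COL13A1, a transmembrane collagen of neuromuscular junctions and cell contacts, fell, with a log2 change of -0.76 in Banhasasim-tang, -0.28 in Sayeok-tang and -0.36 in Bojungikgi-tang. COL17A1, the transmembrane collagen of hemidesmosomes, fell, with a log2 change of -0.53, -0.70 and -0.92 in these formulas. It held only 25 to 95 counts per library, and in Banhasasim-tang its call was kept in 9 of 13 alternative settings.

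Of the FACIT chains, COL14A1 (adjusted p = 0.000332) and COL16A1 (adjusted p = 0.00916) passed the test of a difference in dose effect between formulas, both for Banhasasim-tang minus Bojungikgi-tang. COL12A1, which lies on type I fibrils, fell, with a log2 change of -0.49 in Banhasasim-tang and -0.49 in Sayeok-tang and gave -0.10 in Bojungikgi-tang (adjusted p = 0.533). COL21A1 fell in all 3, with log2 changes of -0.42 in Banhasasim-tang, -0.48 in Sayeok-tang and -0.24 in Bojungikgi-tang, the last in 9 of 15 alternative settings. COL16A1 fell, with a log2 change of -0.35 in Banhasasim-tang and -0.16 in Sayeok-tang. COL14A1 was the single chain called in opposite directions. It had 45.7, 46.3 and 47.3 CPM in Bojungikgi-tang at 500 µg/mL, against 40.7, 34.8 and 44.4 CPM at 20 µg/mL, a rise of 0.22 (adjusted p = 0.00963). Without replicate 2 at 20 µg/mL it was 0.13 (adjusted p = 0.0885). In Banhasasim-tang COL14A1 had 33.5 and 31.0 CPM at 500 µg/mL, against 37.2 and 38.8 CPM at 20 µg/mL, a fall of -0.24 (adjusted p = 0.00883). COL7A1, the chain of anchoring fibrils, fell, with a log2 change of -0.44 in Banhasasim-tang and gave -0.17 in Sayeok-tang (adjusted p = 0.183). It did not pass the test in Bojungikgi-tang. There it had 223, 230 and 264 CPM at 500 µg/mL, against 223, 218 and 267 CPM at 20 µg/mL, with replicate 3 the highest in both groups.

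The middle dose gave few calls. At 100 against 20 µg/mL, 1 chain was higher and 2 lower in Bojungikgi-tang, where 1.56% of all genes were called (0.458% higher, 1.11% lower). In Sayeok-tang 0 were called, where 0.0306% of all genes were (0.0204% higher, 0.0102% lower). In Banhasasim-tang 2 were higher and 3 lower, where 6.60% were called (3.64% higher, 2.96% lower). The chains in Bojungikgi-tang were COL14A1 (0.23), COL13A1 (-0.21) and COL17A1 (-0.71). In Banhasasim-tang COL15A1 gave 0.58 (adjusted p = 1.3e-06) and COL8A2 gave 0.31, while COL13A1, COL1A1 and COL8A1 gave -0.22, -0.19 and -0.16. COL15A1 averaged 13.2 CPM at 20 µg/mL, 19.6 CPM at 100 µg/mL and 35.9 CPM at 500 µg/mL in Banhasasim-tang. With library size alone the split in Banhasasim-tang was 1 higher and 7 lower, and in Bojungikgi-tang 1 higher and 1 lower. The number of calls at this dose rested on single libraries. It ran from 0 to 4 in Bojungikgi-tang when libraries were left out in turn. In Banhasasim-tang leaving out a library leaves 1 in its group. The lower calls there, COL1A1 among them, did not hold when any single library was left out.

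The formulas were compared at 500 µg/mL. Banhasasim-tang set against Bojungikgi-tang gave 5 chains higher and 16 lower, where 47.5% of all genes were called (24.9% higher, 22.6% lower). Banhasasim-tang set against Sayeok-tang gave 5 higher and 7 lower, where 41.3% were called (21.2% higher, 20.1% lower). Bojungikgi-tang set against Sayeok-tang, within one description set, gave 10 higher and 0 lower, where 12.7% were called (6.12% higher, 6.54% lower). The 10 were COL3A1 (0.62), COL4A5 (0.41), COL4A6 (0.39), COL14A1 (0.38), COL21A1 (0.36), COL12A1 (0.35), COL8A1 (0.23), COL5A2 (0.22), COL1A1 (0.20) and COL1A2 (0.16). In Banhasasim-tang relative to Bojungikgi-tang the largest values by size were those of COL24A1 (-1.92), which rests on 2 to 21 counts per library, COL3A1 (-1.13) and COL15A1 (1.04). In Banhasasim-tang relative to Sayeok-tang, COL15A1 (0.94), COL1A1 (-0.75) and COL8A2 (0.61) were the largest, and the type VI chains COL6A1, COL6A2 and COL6A3 were higher by 0.21 to 0.25. With library size alone as the scaling, the all-gene median moved by over 0.1 and the split was 2 higher and 13 lower.

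Whether the dose effect itself differed was tested as an interaction. The effect of 500 against 20 µg/mL in Banhasasim-tang minus that in Bojungikgi-tang was higher for 3 chains and lower for 13, where 31.8% of all genes were called (16.5% higher, 15.3% lower). Against Sayeok-tang it was higher for 3 and lower for 8, where 24.4% were called (12.2% in each direction), and with library size alone higher for 2 and lower for 10. COL3A1 differed by -1.03, COL1A1 by -0.87 and COL15A1 by 1.07 between Banhasasim-tang and Bojungikgi-tang. The effect in Bojungikgi-tang minus that in Sayeok-tang was higher for 5 chains and lower for 0, where 4.49% of all genes were called (2.37% higher, 2.12% lower), led by COL3A1 at 0.50, COL4A6 at 0.41 and COL4A5 at 0.39. These comparisons share libraries, so their values are set side by side and not counted as separate evidence.

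Against vehicle, 1 chain was higher and 15 lower in Bojungikgi-tang at 500 µg/mL, where 34.6% of all genes were called (16.4% higher, 18.2% lower), and with library size alone 3 were higher and 14 lower. In Sayeok-tang 1 was higher and 20 lower, where 38.3% were called (18.8% higher, 19.4% lower), and in Banhasasim-tang 3 were higher and 18 lower, where 51% were called (25.9% higher, 25.1% lower). COL15A1 had 35.4 and 36.3 CPM in Banhasasim-tang at 500 µg/mL, against 13.03, 12.8 and 12.5 CPM in vehicle, a log2 change of 1.49. COL1A1 had a change of -1.16, -0.41 and -0.22 in Banhasasim-tang, Sayeok-tang and Bojungikgi-tang, and COL3A1 of -1.34, -0.83 and -0.21. The largest values by size were those of low chains. COL24A1 gave -2.24 and -1.66 and COL19A1 gave -2.15 and -1.83 in Banhasasim-tang and Sayeok-tang, and COL19A1 had at most 10 counts in a library. COL19A1 also shares exon sequence on the opposite strand with LMBRD1, at 36.6 CPM on average, and no source used here states whether counting used strand. In Bojungikgi-tang COL17A1 (-1.01), COL4A4 (-0.67) and COL15A1 (0.45) were the largest. COL6A2 was higher in Banhasasim-tang at 500 µg/mL by 0.22, and with an offset for GC content and length it was -0.11 (adjusted p = 0.0295).

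At 20 µg/mL against vehicle, 3 chains were higher and 2 lower in Bojungikgi-tang, where 26.2% of all genes were called (12.4% higher, 13.8% lower). In Sayeok-tang 1 was higher and 4 lower, where 25.3% were called (12% higher, 13.4% lower), and in Banhasasim-tang 3 were higher and 3 lower, where 18.3% were called (8.89% higher, 9.39% lower). COL6A3, the long type VI chain, was lower in all 3, with log2 changes of -0.28 in Bojungikgi-tang, -0.33 in Sayeok-tang and -0.25 in Banhasasim-tang, and COL16A1 was higher in all 3, by 0.21, 0.17 and 0.23. COL19A1 gave -1.58 in Bojungikgi-tang, COL3A1 gave -0.19 in Sayeok-tang, and COL12A1 and COL7A1 gave -0.33 and 0.32 in Banhasasim-tang. With library size alone the split was 2 higher and 3 lower in Bojungikgi-tang and 2 higher and 8 lower in Banhasasim-tang, and without single libraries the Banhasasim-tang count ran from 1 to 3. All 3 comparisons share the vehicle libraries. COL18A1 gave 0.14 in Bojungikgi-tang and 0.21 in Banhasasim-tang, and -0.06 and -0.03 with an offset for GC content and length. It overlaps SLC19A1, at 33.2 CPM, on the opposite strand.

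Yijung-tang had 1 library per dose, so its values have no replicate check and no test. COL1A1 had 3489 CPM at 20 µg/mL, 3490 CPM at 100 µg/mL and 2663 CPM at 500 µg/mL. COL3A1 had 63.5, 55.3 and 41.2 CPM and COL15A1 12.6, 13.6 and 17.5 CPM at these doses. In log2 CPM, 28 of the 34 tested chains were lower at 500 than at 20 µg/mL, with a median of -0.19, whereas 49.1% of all tested genes were lower, with a median of 0.00. Relative to the vehicle mean, 24 of the 34 were lower at 500 µg/mL, with a median of -0.26. Of all tested genes 48.4% were lower, with a median of 0.01. At 100 and 20 µg/mL, 23 and 19 of the 34 were lower than the vehicle mean, where 49.4% of all tested genes were. Vehicle is also of another description set.

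Some marker lists of cell types were lower where fibrillar chains were lower, and others were not. The 9 markers of fibroblasts and perivascular cells summed to 511 to 548 CPM in Banhasasim-tang at 500 µg/mL, against 829 to 889 CPM at 20 µg/mL. Of these 9, 8 fell while 1 rose, where 21.3% of all genes were called lower and 22.3% higher. Astrocyte markers summed to 215 to 216 CPM at 500 µg/mL, against 317 to 322 CPM at 20 µg/mL. Sums for microglia and macrophages were 4.78 to 5.26 CPM at 500 µg/mL, against 16.0 to 16.6 CPM at 20 µg/mL, and those for neurons were 98.0 to 103 CPM, against 159.7 to 166.6 CPM. Oligodendrocyte markers summed to 126 to 129.7 CPM at 500 µg/mL, against 148 to 152 CPM at 20 µg/mL. Endothelial markers summed to 27.5 to 30.1 CPM at 500 µg/mL, against 26.6 to 28.3 CPM at 20 µg/mL, and chondrocyte markers to 7.19 to 7.79 CPM, against 6.83 to 7.75 CPM. Few genes carried these sums. In both groups 2 of 7 microglial and 4 of 7 neuronal markers were at 1 CPM or more. The same held for 2 of 7 oligodendrocyte and 2 of 6 chondrocyte markers. Of 6 endothelial markers, 1 was at that level at 500 µg/mL and 2 at 20 µg/mL. The microglial marker AIF1 was at 0 in both groups. All libraries came from a single cell line, so the sums describe RNA of marker genes and not shares of cell types. Their relation to the collagen values was not tested. With library size counted without mitochondrial ribosomal RNA, a setting chosen after seeing the data, the same 21 chains were called in Banhasasim-tang for 500 against 20 µg/mL.

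Genes that make, secrete and process collagen were taken as lists. Their counts for 500 against 20 µg/mL stand beside higher and lower shares over all genes of 6.64 and 8.90% in Bojungikgi-tang, 9.89 and 10.6% in Sayeok-tang, and 22.3 and 21.3% in Banhasasim-tang. Of 15 genes for hydroxylation and glycosylation of chains, 0 rose and 3 fell in Bojungikgi-tang, 4 rose and 2 fell in Sayeok-tang, and 3 rose and 3 fell in Banhasasim-tang, where 43.7% of all genes were called in either direction. PLOD2, a lysyl hydroxylase that sets the type of cross-link, fell, with a log2 change of -0.19, -0.35 and -0.51 in Bojungikgi-tang, Sayeok-tang and Banhasasim-tang, and P3H2, a prolyl 3-hydroxylase, gave -0.22, -0.24 and -0.12. P4HA1, a catalytic subunit of prolyl 4-hydroxylase, fell in Bojungikgi-tang (-0.20) and Banhasasim-tang (-0.43). The related subunit P4HA2 and the shared subunit P4HB rose in Sayeok-tang (0.14 and 0.13) and Banhasasim-tang (0.29 and 0.25). Of 12 genes for folding and export, 2 rose and 1 fell in Bojungikgi-tang, 5 rose and 1 fell in Sayeok-tang, and 6 rose and 4 fell in Banhasasim-tang. MIA3, which loads procollagen into carriers at endoplasmic reticulum exit sites, rose by 0.28, 0.29 and 0.44, and its partner MIA2 by 0.16, 0.26 and 1.15 in the same order of formulas. MIA2 averaged 86.0 CPM in Banhasasim-tang at 500 µg/mL and 38.8 CPM at 20 µg/mL. The ion channel gene TMEM38B rose in Sayeok-tang (0.27) and Banhasasim-tang (0.50). CREB3L1, a membrane-bound transcription factor that drives type I collagen genes in mouse bone, fell, with a log2 change of -0.35, -0.29 and -0.58.

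Of 7 tested genes for propeptide removal, which takes place outside the cell, 2 fell in Bojungikgi-tang, 5 in Sayeok-tang and 6 in Banhasasim-tang, and 0 rose. Lower calls over all genes were 8.90, 10.6 and 21.3% in these formulas, and the median log2 change of the list was -0.10, -0.16 and -0.62. TLL1, of the family that cuts C-propeptides, fell, with a log2 change of -0.45, -0.61 and -1.30 in these formulas. ADAMTS2 and ADAMTS3, which cut N-propeptides, fell in Sayeok-tang (-0.16 and -0.64) and Banhasasim-tang (-0.62 and -1.08). Of 6 cross-linking genes, 5 fell in Bojungikgi-tang, 4 in Sayeok-tang and 3 in Banhasasim-tang, and 1 rose, in Banhasasim-tang, with medians of -0.24, -0.17 and -0.11. The lysyl oxidase family genes LOXL1, LOXL2 and LOXL4 fell in all 3, LOXL1 with a log2 change of -0.29 in Bojungikgi-tang, -0.26 in Sayeok-tang and -0.69 in Banhasasim-tang. Of 10 fibril partners, 1 rose and 2 fell in Bojungikgi-tang, and 0 rose and 5 fell in each of the other 2 formulas, the medians of Sayeok-tang and Banhasasim-tang being -0.17 and -0.18. Lumican (LUM), decorin (DCN) and thrombospondin 2 (THBS2), which bind fibrils and shape their assembly, fell in Sayeok-tang (-0.43, -0.41 and -0.33) and Banhasasim-tang (-0.50, -0.17 and -0.52).

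Of 9 tested receptors, 2 rose and 0 fell in Bojungikgi-tang, 1 rose and 1 fell in Sayeok-tang, and 2 rose and 2 fell in Banhasasim-tang. These shares are near the 15.5, 20.5 and 43.7% of all genes called. DDR2, a receptor tyrosine kinase for fibrillar collagen, rose by 0.22, 0.34 and 0.86, and averaged 288 CPM in Banhasasim-tang at 500 µg/mL and 159 CPM at 20 µg/mL. ITGA2, an integrin subunit for collagen, rose in Bojungikgi-tang (0.33) and Banhasasim-tang (0.22). Of 8 tested proteases, 1 rose and 0 fell in Bojungikgi-tang, 1 rose and 1 fell in Sayeok-tang, and 2 rose and 3 fell in Banhasasim-tang. MMP14, a membrane collagenase, rose by 0.13, 0.11 and 0.48, and MMP2, a gelatinase that MMP14 activates, fell in Sayeok-tang (-0.26) and Banhasasim-tang (-0.19).

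Proline makes up much of a collagen chain. PYCR1, which makes proline in the last step of its synthesis, rose in Sayeok-tang (0.65) and Banhasasim-tang (1.16). PYCR1 averaged 219.7 CPM in Banhasasim-tang at 500 µg/mL and 98.7 CPM at 20 µg/mL. ALDH18A1, of an earlier step, fell in Bojungikgi-tang (-0.13) and Banhasasim-tang (-0.11), and PEPD, which frees proline from dipeptides, rose in Bojungikgi-tang (0.13) and Sayeok-tang (0.22). Of 10 inducers of collagen genes, 1 rose and 3 fell in Bojungikgi-tang, 1 rose and 5 fell in Sayeok-tang, and 2 rose and 7 fell in Banhasasim-tang, where 15.5, 20.5 and 43.7% of all genes were called in these formulas. The ligand TGFB3 gave -0.18 in Bojungikgi-tang (adjusted p = 0.0909) and fell in Sayeok-tang (-0.65) and Banhasasim-tang (-2.03), with 5.09 CPM at 500 µg/mL and 20.8 CPM at 20 µg/mL in the last. CCN2, a matricellular protein induced by TGF-beta, fell, with a log2 change of -0.95, -0.66 and -0.53, and the tendon transcription factor gene SCX, at 0.357 to 0.839 CPM on average, fell in Bojungikgi-tang (-0.59) and Banhasasim-tang (-1.01). The receptor TGFBR1 rose in Bojungikgi-tang (0.21) and Sayeok-tang (0.19).

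**Figure D5:**
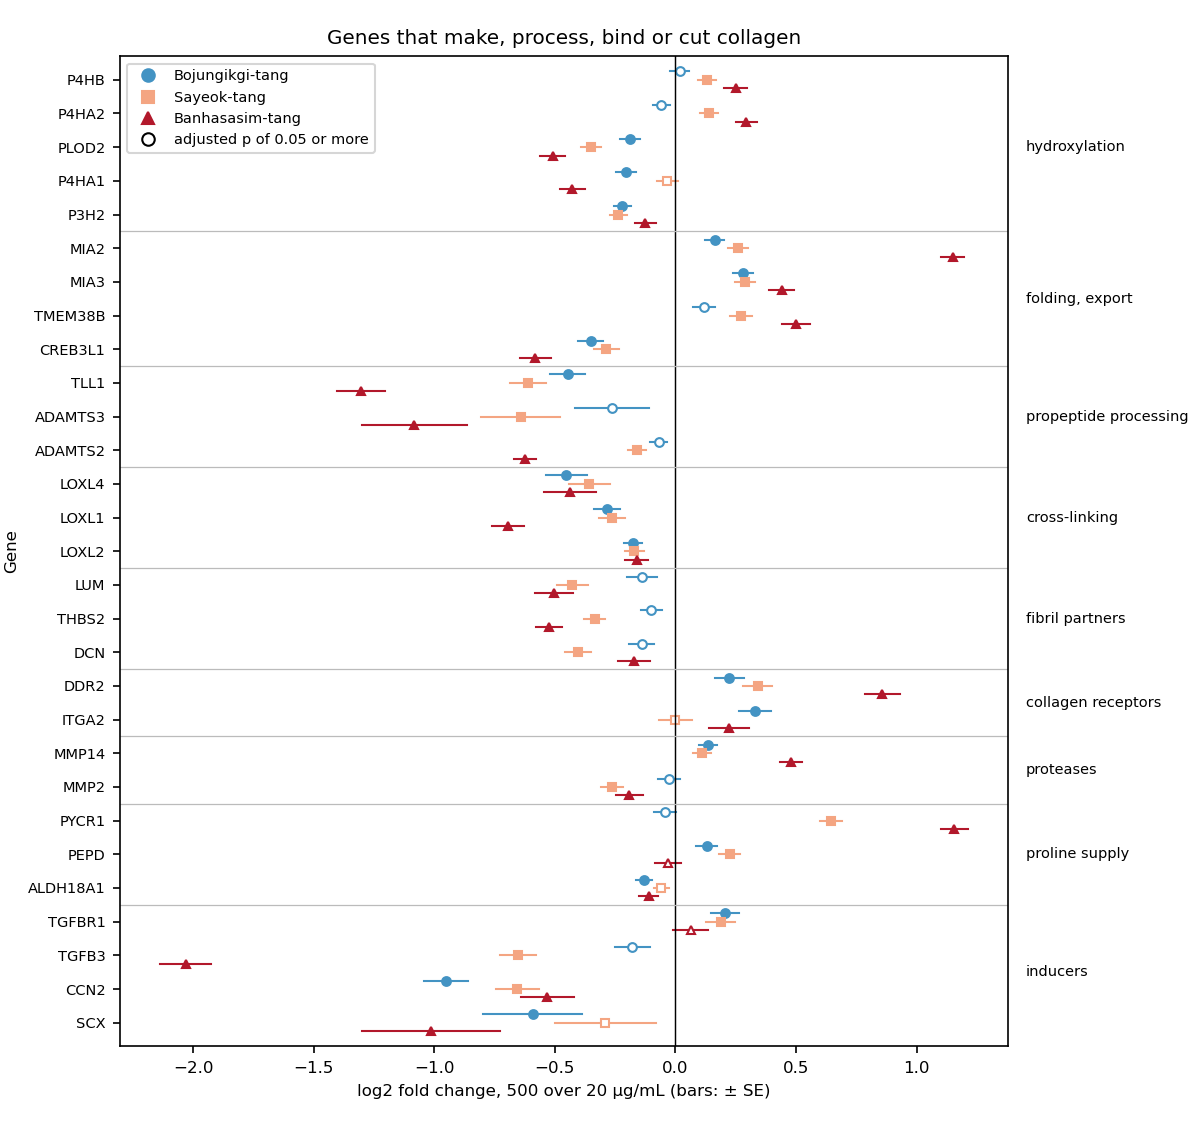
Log2 fold change of 500 over 20 µg/mL for genes that modify, export, process, cross-link, bind or cut collagen, supply proline or induce collagen genes, in Bojungikgi-tang (circles), Sayeok-tang (squares) and Banhasasim-tang (triangles). Bars are ± SE and open symbols did not pass the test. TLL1, ADAMTS3 and TGFB3 (-2.03 in Banhasasim-tang) lie far to the left, and MIA2, PYCR1 and DDR2 to the right.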

How the data were processed

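RNA was sequenced from 30 libraries of SW1783 cells. The deposited table holds expected counts per gene, not normalized. Per the submitters' processing notes, which give no order, the tools were RSEM 1.3.3, STAR 2.7.3a, FastQC 0.11.9 and Trim Galore 0.6.5, and the build was hg38. The annotation release and the strand setting of the counting are not given in the sources used here.

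Expected counts were rounded to whole numbers and libraries were scaled with TMM. Genes passing edgeR's filterByExpr were fitted with edgeR 4.0.16 (quasi-likelihood test, R 4.3.3), with a mean for each of 13 groups. Adjusted p-values are Benjamini-Hochberg values over all 19632 tested genes in each comparison, with a threshold of 0.05. The SE is the log2 change divided by the square root of F, an approximation, and intervals use 17 degrees of freedom. Libraries held 28.01 to 59.9 M counts. Chains were matched by Ensembl identifier to GENCODE v29, and promoter windows come from RefSeq. The members and gene lists were chosen with earlier results of these data known. The rule for chains named with values took the 12 with the highest level per length, those called in at least 2 of the 3 comparisons of 500 against 20 µg/mL or in any interaction, and the 3 largest called changes in each comparison. Other chains named were chosen after their values were seen. Each gene list gave up to 3 genes per direction with the largest mean change among those called in at least 2 of these 3 comparisons. The steps were tested on simulated data. Alternatives were other scalings, no filter, an offset for GC content and length, a replicate block, only the compared groups, DESeq2 1.42.0, and each library left out in turn. One gene of the proline list, and the counts over that list, are not reported here.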

Additional observations from a re-analysis of the deposited data

Results flagged for a closer look

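Between formulas, the effect of 500 against 20 µg/mL differed for the chains below at an adjusted p below 0.05 in edgeR's interaction test, given as log2 differences. These comparisons share libraries, and those with Banhasasim-tang also set one description set against another.

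Banhasasim-tang minus Bojungikgi-tang was -1.03 for COL3A1, -0.87 for COL1A1, -0.59 for COL1A2, -0.63 for COL5A1, -0.26 for COL5A2 and -0.54 for COL11A1 among fibrillar chains. It was -0.40 for COL4A5, -0.21 for COL4A6 and 0.29 for COL6A2. It was -0.68 for COL8A1, 0.54 for COL8A2, -0.40 for COL13A1, -0.46 for COL14A1, -0.26 for COL16A1, -0.46 for COL7A1 and 1.07 for COL15A1.

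Banhasasim-tang minus Sayeok-tang was -0.75 for COL1A1, -0.53 for COL1A2, -0.52 for COL3A1, -0.50 for COL5A1 and -0.61 for COL11A1. It was 0.19 for COL4A6, -0.44 for COL8A1, 0.46 for COL8A2, -0.48 for COL13A1, -0.19 for COL18A1 and 0.94 for COL15A1.

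Bojungikgi-tang minus Sayeok-tang, within one description set, was 0.50 for COL3A1, 0.22 for COL5A2, 0.39 for COL4A5, 0.41 for COL4A6 and 0.24 for COL8A1.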

How the results depend on the processing

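Counts of chains called stayed within 1.5 times of the values given under the other settings, with these exceptions, whose cause was not tested. With the offset for GC content and length the count was 19 (2 higher, 17 lower) in Bojungikgi-tang for 500 against 20 µg/mL and 8 in Banhasasim-tang for 100 against 20 µg/mL. With the replicate block and that offset it was 17 in Bojungikgi-tang for 500 against 20 µg/mL, 8 in Bojungikgi-tang at 20 µg/mL against vehicle and 17 for the Banhasasim-tang minus Sayeok-tang effect. With only the compared groups, which leaves fewer libraries to estimate the spread, it was 7 and 0 in Bojungikgi-tang for 500 and for 100 against 20 µg/mL, 10 in Banhasasim-tang for 100 against 20 µg/mL, 1 and 13 for 20 µg/mL of Bojungikgi-tang and of Banhasasim-tang against vehicle, and 3 for the Bojungikgi-tang minus Sayeok-tang effect. With library size only it was 8 in Banhasasim-tang for 100 against 20 µg/mL and 10 at 20 µg/mL against vehicle, and with no filter 2 for the first of these.

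Over all tested genes, replicate numbers showed little pairing of the samples. Over 63 same-numbered pairs the median correlation of deviations was 0.00 and 3 were over 0.1. Over 126 pairs with different numbers the median was also near 0 and 4 were over 0.1. Of 21 samples, 10 correlated best with their own number, and the number to be met without pairing was not computed. Single chains can differ from this. In Bojungikgi-tang replicate 3, COL7A1 had 264, 268 and 267 CPM at 500, 100 and 20 µg/mL. Replicates 1 and 2 had 218 to 230 CPM. With the replicate block alone the counts for 500 against 20 µg/mL were 11 in Bojungikgi-tang, 17 in Sayeok-tang and 23 in Banhasasim-tang.

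With each library left out in turn, the counts for 500 against 20 µg/mL were 9 to 16 in Bojungikgi-tang, 14 to 16 in Sayeok-tang and 17 to 19 in Banhasasim-tang. For 100 against 20 µg/mL they were 0 to 4 in Bojungikgi-tang, with 0 without replicate 1 at 100 µg/mL, and 1 to 2 in Banhasasim-tang. At 20 µg/mL against vehicle they were 3 to 7 in Bojungikgi-tang (3 without vehicle replicate 1 or 2), 3 to 6 in Sayeok-tang (3 without vehicle replicate 1 or Sayeok-tang replicate 1) and 1 to 3 in Banhasasim-tang (1 without Banhasasim-tang replicate 3).

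Single chains turned round in sign against vehicle or between formulas, and none for 500 against 20 µg/mL within a formula. With library size only, which moves the all-gene median by -0.15, COL4A2 was -0.055 and COL6A1 -0.014 in Banhasasim-tang relative to Bojungikgi-tang, and COL18A1 -0.12 in Banhasasim-tang at 500 µg/mL against vehicle. With the offset, alone and with the block, COL18A1 at 500 µg/mL against vehicle was -0.21 in Bojungikgi-tang, -0.16 in Sayeok-tang and -0.32 (-0.31 with the block) in Banhasasim-tang, and at 20 µg/mL -0.060, -0.11 and -0.031 (-0.028 with the block). COL16A1 was -0.13 in Sayeok-tang at 500 µg/mL. COL6A1 was -0.16 in Banhasasim-tang at 500 µg/mL, and -0.17 in Bojungikgi-tang and -0.15 in Banhasasim-tang at 20 µg/mL, where COL6A2 was -0.18 and -0.21. COL6A2 was -0.11 in Banhasasim-tang at 500 µg/mL. COL1A2 at 20 µg/mL was 0.12 in Bojungikgi-tang and 0.018 (0.017 with the block) in Sayeok-tang. Chains below 1 CPM had too few counts for small differences to be detectable.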
